A study of Mus musculus with 10 samples.

Results

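Ribosomal protein paralogues are second gene copies that encode a protein closely related to a canonical ribosomal protein. The paralogues Rpl22l1, Rps27l, Rpl7l1, Rpl36al and Rpl39l were taken from the footprint table by matching Ensembl identifiers to their symbols, which gave 5 genes of 22373 in the table. All 5 passed the filter of at least 32 footprints summed over the 2 libraries of at least one stage, as did 13484 genes in all. Their parents Rpl22, Rps27, Rpl7, Rpl36a and Rpl39 served as the reference.

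The 10 Ribo-seq libraries were made from ribosome-protected mRNA fragments (footprints) of mouse neocortex, with 2 libraries at each embryonic stage (E12.5, E14, E15.5 and E17, in days after timed mating) and at birth (P0). Animals were wild-type CD-1 mice without transgene or treatment. Each library was a pool of neocortices, so that a replicate is a pool of animals. The spread between replicates holds that between pools together with that of library preparation and depth. The libraries held between 7544404 counts (P0 replicate 1) and 36129988 counts (E14 replicate 2). The P0 pair stood apart from the others: the log2 ratio of its replicates had an SD of 0.54 over 4559 well covered genes, against 0.13 to 0.22 at the other stages. The paralogues' changes from E12.5 to P0 are therefore also given without P0 replicate 1 or as a range over fits without any single library.

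The cytosolic ribosome is built from ribosomal RNA and a set of canonical proteins, and most of these are encoded by a single active gene in mammals. A few have a second active copy whose protein can take the canonical protein's place on the ribosome or act in ribosome assembly, and some of these copies are used mainly in particular tissues. The mRNAs of canonical ribosomal proteins typically begin with a C followed by a run of C and T bases, the 5' terminal oligopyrimidine (TOP) tract, through which growth signalling controls their translation. In the developing neocortex, dividing progenitors make much new ribosome, and their share of the tissue declines as neurons accumulate.

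The sequences around the annotated transcription starts are shown because a TOP tract would begin there. Each runs 5' to 3' on the transcript strand from 15 bases before the start to 15 bases into the transcript (RefSeq, GRCm38.p6), and the longest run of C and T is in capitals. The last 15 bases are the first bases of exon 1.
Rpl22l1, chr3:28805493-28805522, plus strand: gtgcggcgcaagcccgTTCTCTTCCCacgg
Rps27l, chr9:66946071-66946100, plus strand: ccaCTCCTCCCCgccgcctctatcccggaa
Rps27l, alternative start, chr9:66946398-66946427, plus strand: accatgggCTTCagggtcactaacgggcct
Rpl7l1, chr17:46782642-46782671, minus strand: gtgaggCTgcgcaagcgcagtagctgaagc
Rpl36al, chr12:69184053-69184082, minus strand: caTTCCCgtcgctcaggttcagttccgact
Rpl39l, chr16:10170213-10170242, plus strand: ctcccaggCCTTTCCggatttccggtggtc

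The longest run, of 10 bases, was in Rpl22l1, where it covered bases 2 to 11 of the annotated transcript. The upstream Rps27l start had a run of 9 bases that ended 4 bases before the start, and Rpl39l had a run of 7 bases that ended directly before it. Rpl7l1 had no run longer than 2 bases in this window. A run of at least 8 bases was present in 12% of all 32851 annotated start windows and in 39.7% of the 68 windows of canonical ribosomal protein genes (58 genes matched). A C followed by at least 4 further C or T bases was present in 36.4% of all windows and in 58.8% of the canonical ones. Only the transcript strand was searched, and annotated starts may lie some bases from those used in neocortex.
Among the parents, Rps27 and Rpl39 held the longer runs.
Rps27, chr3:90213634-90213663, minus strand: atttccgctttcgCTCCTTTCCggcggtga
Rpl39, chrX:37085208-37085237, minus strand: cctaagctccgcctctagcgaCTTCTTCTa
The Rps27 run crossed the start and the Rpl39 run began at base 7 of the transcript. The table of start sequences used here held no entry for Rpl7.

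Footprint levels of 4 of the 5 paralogues were lower at birth than at E12.5. Rpl22l1 fell 2.88-fold, Rps27l 2.85-fold, Rpl7l1 2.07-fold and Rpl36al 1.57-fold, while Rpl39l had no call and its P0 replicates lay far apart. Thus 4 of the 5 were called lower and 0 higher, at an adjusted p under 0.05 (limma-voom, Benjamini-Hochberg over all genes kept) with a change of at least 0.32 on the log2 scale. Many genes passed in this comparison: 32% of the 13484 genes were called lower and 62.1% were called in either direction. The 2 stages did not overlap, with P0 lower, for the same 4 genes and for 38.8% of all genes. Levels below are counts relative to TMM-scaled library size (CPM), which follow a gene across libraries but do not rank genes of different coding length. In whole tissue, fewer cells of a type and less RNA or translation per cell cannot be told apart.

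**Figure D1:**
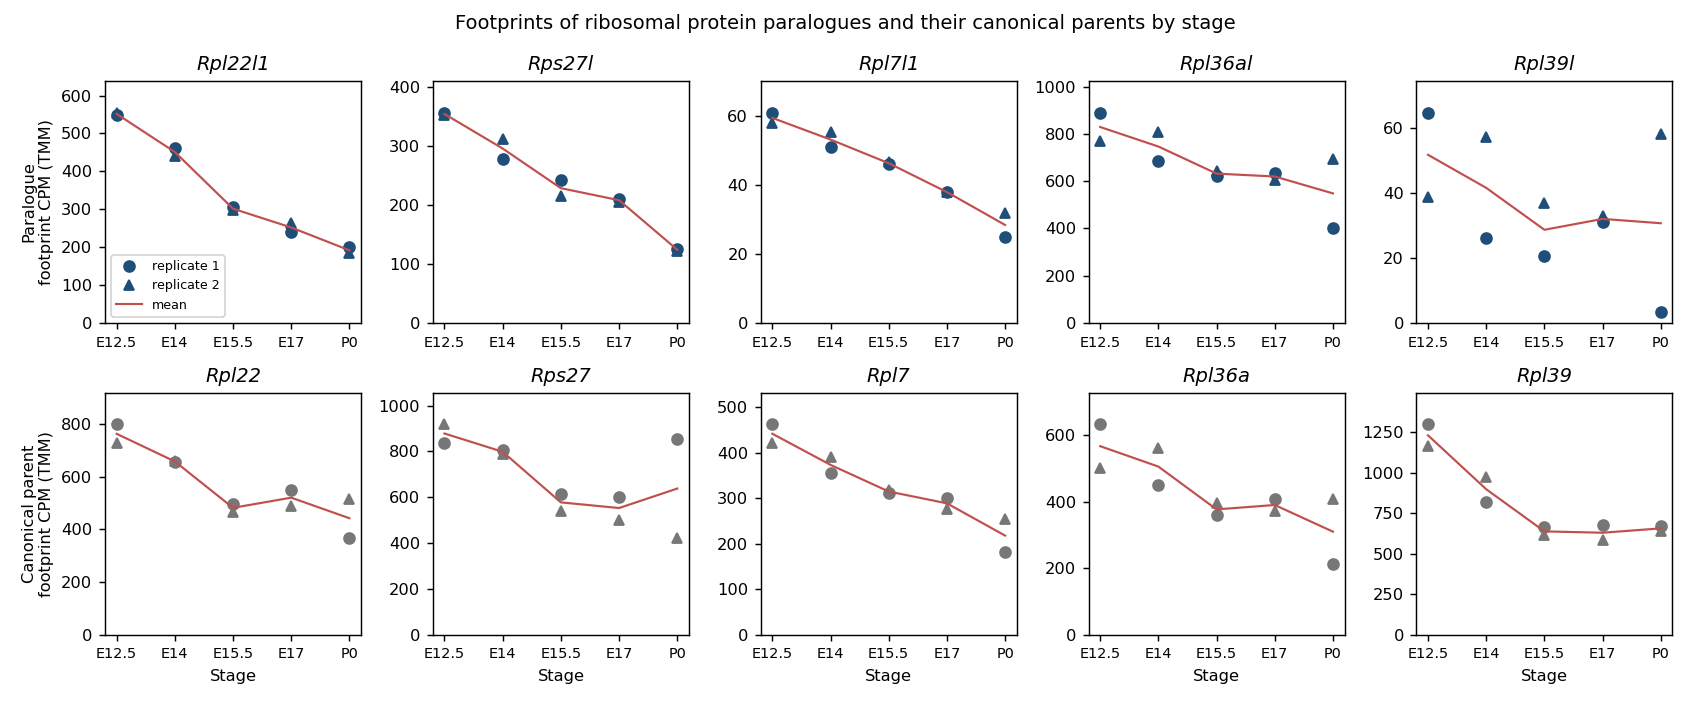
Footprint level (CPM, linear axes from 0) of the 5 paralogues and their parents in each of the 10 libraries, by stage, circles and triangles for replicates 1 and 2 and lines through the stage means. Rpl22l1 goes from 552 CPM at E12.5 to 192 CPM at P0 with replicates close together at each stage, while the P0 replicates of Rpl39l sit at 3.37 and 57.9 CPM.

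Rpl22l1 (ENSMUSG00000039221), the paralogue of a large subunit protein whose canonical form is known to bind and restrain the Rpl22l1 transcript, fell over the whole course. Its level was 548 and 555 CPM at E12.5, 461 and 441 CPM at E14, 306 and 297 CPM at E15.5, 241 and 264 CPM at E17, and 200 and 184 CPM at P0. Each stage lay wholly below the stage before it. Such non-overlapping falls were found in 26.2%, 38.8%, 33.8% and 28.9% of all genes over the 4 successive steps, each taken alone. The share of genes with such falls at all 4 steps was not counted. The log2 fold change from E12.5 to P0 was -1.53 ± 0.09 (SE, adjusted p = 3.39e-06, limma-voom). It stayed between -1.59 and -1.46 when any single library was left out, and was -0.9998 with scaling to total counts alone, where it was still called.

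Over single steps, Rpl22l1 fell 1.496-fold from E14 to E15.5 (-0.58 ± 0.09 on the log2 scale, SE, adjusted p = 0.00182, limma-voom) and 1.32-fold from E17 to P0 (-0.40 ± 0.09, adjusted p = 0.0202). The call from E17 to P0 was lost without E15.5 replicate 2 (adjusted p = 0.0535), without E17 replicate 1 (0.0766) and without E17 replicate 2 (0.130). The steps from E12.5 to E14 (-0.29 ± 0.09, adjusted p = 0.171) and from E15.5 to E17 (-0.26 ± 0.09, adjusted p = 0.116) did not pass. Scaled to total counts alone, the step from E14 to E15.5 was -0.29 and fell short of the fold threshold. The call from E17 to P0 was lost with total counts alone (-0.28, adjusted p = 0.0764, limma-voom) and with sample quality weights (-0.37, 0.142). It was lost too in a fit of the 2 stages alone (-0.39, 0.217).

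Rps27l (ENSMUSG00000036781), a small subunit paralogue known as a target of p53, fell most at the end of the time course. Its level was 357 and 352 CPM at E12.5, 279 and 313 CPM at E14, 243 and 215 CPM at E15.5, 211 and 205 CPM at E17, and 126 and 123 CPM at P0. The stages did not overlap, and the gap between E17 and P0 was the widest between neighbouring stages. The shares of all genes with such falls are those given for Rpl22l1, step by step. Its log2 fold change from E12.5 to P0 was -1.51 ± 0.10 (SE, adjusted p = 5.33e-06, limma-voom), and it lay between -1.53 and -1.49 without any single library and at -0.99 with total counts alone.

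The step from E17 to P0 was a 1.68-fold fall of Rps27l (log2 fold change -0.75 ± 0.10, SE, adjusted p = 0.00293, limma-voom), which kept its call without any single library but not in a fit of these 2 stages alone (adjusted p = 0.0938), where 0 genes were called. From E14 to E15.5 it fell 1.29-fold (-0.37 ± 0.10, adjusted p = 0.0188). That call was lost without E14 replicate 2 (-0.29, adjusted p = 0.127), without E15.5 replicate 2 (-0.28, 0.158) and with scaling to total counts alone (-0.08, 0.583). The other steps were -0.26 (E12.5 to E14, adjusted p = 0.237) and -0.13 (E15.5 to E17, adjusted p = 0.454).

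Rpl7l1 (ENSMUSG00000063888), the counterpart of a yeast factor that acts in assembly of the large subunit, declined by smaller steps. Its level was 60.9 and 57.8 CPM at E12.5, 51.0 and 55.2 CPM at E14, 45.9 and 46.6 CPM at E15.5, 38.03 and 37.79 CPM at E17, and 24.79 and 31.99 CPM at P0. Here too no neighbouring stages overlapped (shares of all genes by step as given for Rpl22l1), but no single step passed. The closest was E17 to P0 (log2 fold change -0.40 ± 0.13, SE, adjusted p = 0.0567, limma-voom), which passed without P0 replicate 2 (-0.61, adjusted p = 0.00491) and was -0.25 at its smallest without a library. The log2 fold change from E12.5 to P0 was -1.05 ± 0.13 (adjusted p = 0.00015), and it was called without any single library, between -1.26 and -0.89. With total counts alone it was -0.52 and still called (adjusted p = 0.00598).

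Rpl36al (ENSMUSG00000049751) encodes a large subunit protein almost identical to that of X-linked Rpl36a. Reads could be assigned to either gene where the coding sequences match, but these sequences were not compared here. Rpl36al had 890 and 768 CPM at E12.5, 686 and 807 CPM at E14, 621 and 643 CPM at E15.5, 636 and 603 CPM at E17, and 403 and 693 CPM at P0. The P0 replicates spanned the E15.5 and E17 values, and E12.5 was the only stage with both replicates above both of them. The log2 fold change from E12.5 to P0 was -0.65 ± 0.22 (SE, adjusted p = 0.0314, limma-voom). The call was lost without P0 replicate 1 (-0.25, adjusted p = 0.0948), without E12.5 replicate 1 (-0.55, 0.146) and without E12.5 replicate 2 (-0.76, 0.0590). It was lost too with scaling to total counts alone (-0.12, 0.634) and in a fit of the 2 stages alone (adjusted p = 0.137). No step between adjacent stages passed, although the step from E17 to P0 did so without P0 replicate 2 (-0.62, adjusted p = 0.00753) and turned to 0.16 without P0 replicate 1.

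Rpl39l (ENSMUSG00000039209), a copy best known from the testis, was the least reproducible. Its level was 64.6 and 38.7 CPM at E12.5, 26.0 and 57.0 CPM at E14, 20.5 and 36.8 CPM at E15.5, 31.0 and 33.0 CPM at E17, and 3.37 and 57.9 CPM at P0. Apart from E12.5 against E15.5 and E17, the stages overlapped, and the lowest and the second highest value were both from P0. These P0 values were 31 counts in replicate 1 and 2428 counts in replicate 2. The log2 fold change from E12.5 to P0 was -1.35 ± 1.01 (SE, adjusted p = 0.271, limma-voom), was 0.23 without P0 replicate 1 and was -3.85 (adjusted p = 0.0136) without P0 replicate 2.

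**Figure D2:**
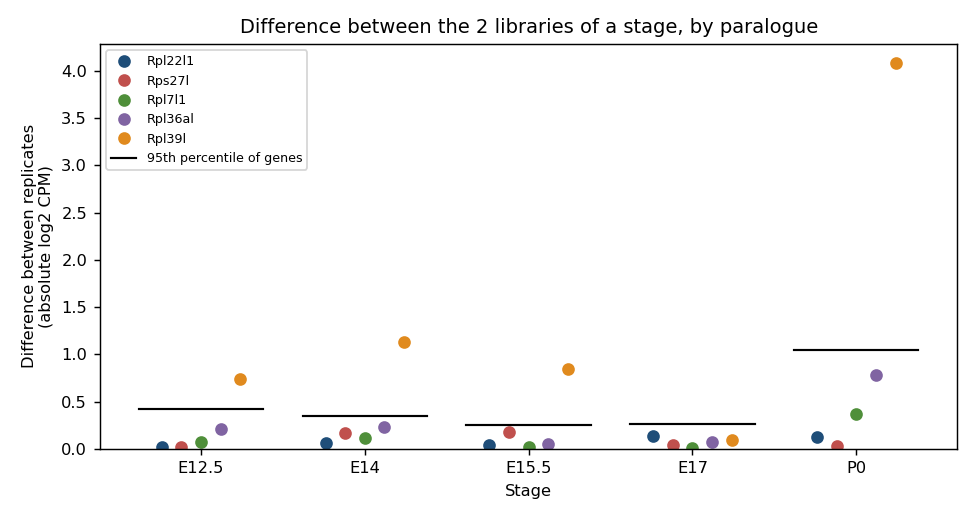
Absolute difference between the 2 replicates of each stage (log2 CPM) for the 5 paralogues, with black bars at the level that 95% of 4559 well covered genes do not exceed. Rpl39l lies above that bar at every stage but E17 and reaches 4.08 at P0, where 95% of genes differ by less than 1.05.

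The replicate difference of Rpl39l was 1.67-fold at E12.5, 2.19-fold at E14, 1.80-fold at E15.5, 1.06-fold at E17 and 16.9-fold at P0. Only 0.658%, 0.0877% and 0.0658% of 4559 genes differed as much at E12.5, E14 and E15.5, and 0.0439% did at P0. At E17 its replicates were ordinary, since 45.8% of genes differed as much. The other 4 paralogues were within the range of 95% of genes at every stage, and their largest difference was that of Rpl36al at P0 (1.72-fold, with 13.6% of genes as far). Rpl39l had between 588 and 2428 counts outside P0 replicate 1, and 31 counts in that library. Its coding sequence resembles that of Rpl39. The parts of counting error and of read assignment in these differences were not tested. The study's methods name an estimate of footprints per isoform (DeepShape-prime) from reads kept when they match several places, summed to genes with tximport, but the link between that step and the count table used here is not stated.

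Rpl3l and Rpl10l, paralogues that are mainly known from striated muscle and testis, had 6 and 21 counts in total over the 10 libraries and did not pass the filter. Rps4l was not analysed here. The step from E12.5 to E14 called 0 of the 5 paralogues (0.638% of all genes were called), with 2 of them, Rpl22l1 and Rps27l, at an unadjusted p of 0.0127 and 0.0271. edgeR and DESeq2 also called 0. The step from E14 to E15.5 called 2 lower (19.6% of all genes), the step from E15.5 to E17 called 0 (9.04% of all genes in either direction), with Rpl22l1 and Rpl7l1 at an unadjusted p of 0.0206 and 0.0450, and edgeR and DESeq2 again called 0. The step from E17 to P0 called 2 lower (11.1% of all genes). An F test over the 5 stages with no fold threshold passed for 3 of 5, Rpl22l1 (adjusted p = 1.56e-05, limma-voom), Rps27l (3.56e-05) and Rpl7l1 (0.000823), while Rpl36al (0.152) and Rpl39l (0.746) did not pass. Of all genes, 63.8% passed this F test. Without either P0 library in turn 4 of 5 passed, while the number of all genes that passed went from 8605 to 10484 and 10364.

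The canonical family gives the yardstick for these falls. Between E12.5 and P0 the median log2 fold change of the 79 canonical ribosomal protein genes was -0.72, against -0.01 over all genes tested, and 69 of the 79 were called lower and 0 higher. With scaling to total counts alone the median of all genes itself shifted by 0.53. The largest called fall was that of Rps12, a small subunit protein, from 237 ± 8.35 to 91.5 ± 0.295 CPM (SD, n = 2; log2 fold change -1.37 ± 0.09, SE, adjusted p = 5.66e-06, limma-voom). No canonical gene had a lower fitted value than Rpl22l1 or Rps27l, while 5 were below Rpl7l1 and 46 below Rpl36al. The plot of changes against the family shows both fitted values under the canonical ones, but close to that of Rps12. Rpl22l1 (-1.53 ± 0.09, SE) and Rps27l (-1.51 ± 0.10) had SE ranges that overlapped that of Rps12. The differences from Rps12 were not tested.

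**Figure D3:**
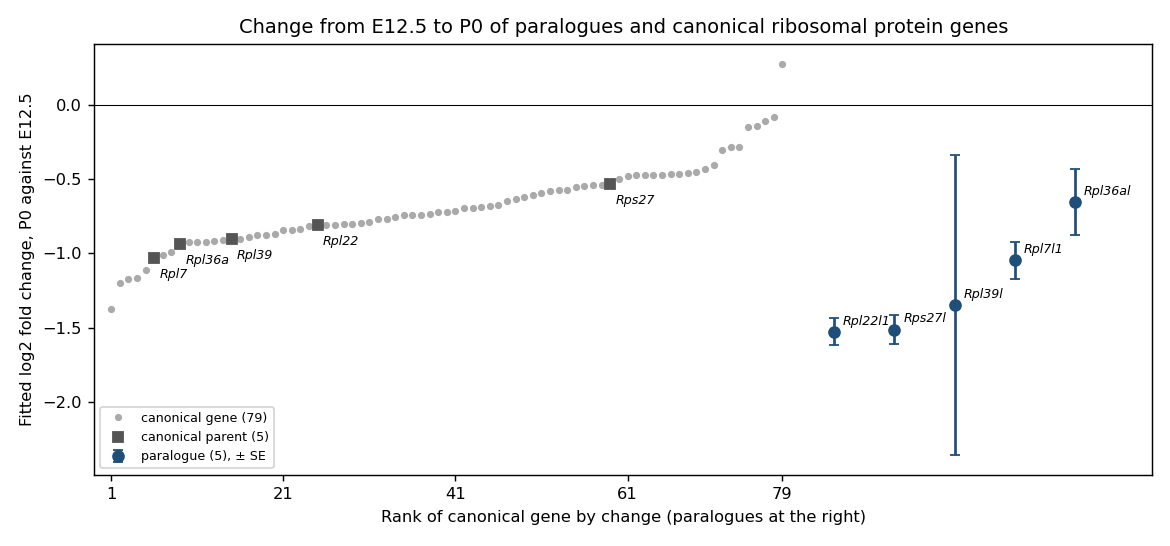
Fitted log2 fold change from E12.5 to P0 of the 79 canonical ribosomal protein genes, ranked, and of the 5 paralogues with their standard errors. The fitted values of Rpl22l1 (-1.53) and Rps27l (-1.51) lie below that of the lowest canonical gene (-1.37), with overlapping SE ranges and no test of the difference. Rpl39l has an SE of 1.01.

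The steps differed in this respect. From E14 to E15.5 the whole family declined, with a median of -0.42 and 45 of 79 genes called lower, and 52 canonical genes had a lower fitted value than Rps27l, 10 a lower one than Rpl22l1 and 75 a lower one than Rpl7l1. From E15.5 to E17 the canonical median was -0.05 and the lowest canonical value -0.254, with 0 of 79 called. Rpl22l1 (-0.260 ± 0.09, SE) was level with that lowest value and Rpl7l1 (-0.287 ± 0.12) just below it. Neither was itself called. From E17 to P0 the canonical median was -0.11 and the lowest canonical value -0.49, with 3 of 79 called lower. No canonical gene was below Rps27l (-0.75 ± 0.10, SE) or below Rpl39l (-0.71 ± 1.01), which was not called.

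Each paralogue was then set against the family within the library. The median log2 CPM of the 79 canonical genes was subtracted, which removes any library scaling, and the 5 stages were compared by an exact permutation test over the 945 groupings of 10 libraries into 5 pairs (smallest possible p = 0.00106). For Rpl22l1 this relative level was -0.35 and -0.46 at E12.5, then -0.54 and -0.58 at E14, then -0.70 and -0.73 at E15.5, then -1.12 and -0.81 at E17, and -1.084 and -1.249 at P0. The stages were ordered with no overlap until E17, whose lower replicate lay below the higher P0 one. The share of all genes ordered in this way was not counted. The difference between stages passed (exact permutation p = 0.00212, adjusted over the 5 tests 0.0106). Leaving out a library lost it for any library but those of E17, with adjusted permutation p of 0.0794 to 0.134. It was retained over the 4 embryonic stages alone (0.0476), an alternative chosen after seeing the data.

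The relative level of Rps27l was -0.97 and -1.12 at E12.5 and between -1.31 and -1.04 from E14 to E17, then -1.75 and -1.83 at P0. Both P0 values lay below all 8 others, and the E17 pair lay below the E12.5 pair. The share of all genes separated in this way was not counted. The exact permutation test did not pass (p = 0.0508, adjusted over the 5 tests 0.113), over the embryonic stages alone the adjusted permutation p was 0.571, and without P0 replicate 1 it was 0.127. Rpl7l1 went from -3.52 and -3.72 at E12.5 to -4.09 and -3.77 at P0, with its highest pair at E15.5 (-3.44 and -3.40; exact permutation p = 0.0677, adjusted 0.113). Rpl36al (adjusted permutation p = 0.994) and Rpl39l (0.994) did not pass, and their P0 replicates, at -0.07 and 0.67 and at -6.95 and -2.91, spanned the values of all other stages.

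Scaling the whole count table to the canonical family, also chosen after seeing the data, called Rpl22l1 and Rps27l. Over the whole course, Rpl22l1 fell by 0.76 ± 0.13 and Rps27l by 0.75 ± 0.12 on the log2 scale (SE, adjusted p = 0.000627 and 0.00052, limma-voom), so that 2 of 5 were called, with 14.3% of all genes called lower. Under this scaling Rpl7l1 was at -0.29 (adjusted p = 0.107), Rpl36al at 0.12 and Rpl39l at -0.64, none of them called. Between adjacent stages only Rps27l from E17 to P0 was called (-0.55, adjusted p = 0.0161), where 5.47% of all genes were called lower.

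The count ratio of a paralogue to its parent asks whether the pair changed its balance, and it is read here only across stages. Rpl22l1 to Rpl22 was 0.685 and 0.763 at E12.5, then 0.702 and 0.668 at E14, then 0.614 and 0.637 at E15.5, then 0.437 and 0.537 at E17, and 0.542 and 0.355 at P0. All 4 ratios of E17 and P0 lay below the 6 earlier ones, while E17 and P0 overlapped. How often the ratios of other gene pairs are so separated was not counted. The difference over stages did not pass (exact permutation p = 0.110, adjusted over the 5 pairs 0.138), but it did without P0 replicate 1 (adjusted permutation p = 0.0212). Rpl22 itself went from 764 ± 51.5 to 443 ± 105 CPM (SD, n = 2; log2 fold change -0.81 ± 0.15, SE, adjusted p = 0.00203, limma-voom). It was not called with total counts alone (-0.28, adjusted p = 0.128) and was at -0.56 without P0 replicate 1.

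The ratio of Rps27l to Rps27 was 0.426 and 0.383 at E12.5, between 0.345 and 0.409 from E14 to E17, and 0.147 and 0.291 at P0. Both P0 ratios lay below all 8 others, and the exact permutation test over stages did not pass (p = 0.0825, adjusted 0.138, and adjusted 0.235 without P0 replicate 1). For this separation too, no share over other gene pairs was counted. The parent Rps27 differed 2.02-fold between its P0 replicates (854 and 422 CPM) and was not called from E12.5 to P0 (-0.53 ± 0.28, adjusted p = 0.123, limma-voom), though it was without P0 replicate 1 (-1.05, adjusted p = 0.000143). The spread of the P0 ratio is thus that of Rps27, since the Rps27l replicates differed only 1.02-fold.

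Rpl7l1 and Rpl7 moved side by side. Their ratio was 0.132 and 0.137 at E12.5 and 0.136 and 0.126 at P0, with a range of 0.126 to 0.148 over the 10 libraries (exact permutation p = 0.0984, adjusted 0.138). Rpl7 had a log2 fold change from E12.5 to P0 of -1.03 ± 0.15 (SE, adjusted p = 0.000464, limma-voom), next to -1.05 for Rpl7l1. Rpl36al to Rpl36a was 1.41 and 1.53 at E12.5 and 1.90 and 1.70 at P0 (exact permutation p = 0.0455, adjusted 0.138). Rpl36a was at -0.93 ± 0.27 (adjusted p = 0.0168, limma-voom), and its P0 replicates, 212 and 408 CPM, were split in the same direction as those of Rpl36al. The Rpl36a call was lost without E12.5 replicate 1 (-0.76, adjusted p = 0.0983), with total counts alone (-0.40, 0.216) and in the 2-stage fit (0.0866), and its value was -0.47 without P0 replicate 1. Rpl39l to Rpl39 ranged from 0.00509 to 0.0903, both at P0 (exact permutation p = 0.994). Rpl39, in contrast, was even at birth with 672 and 642 CPM and had a log2 fold change of -0.90 ± 0.12 (adjusted p = 0.000299, limma-voom).

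**Figure D4:**
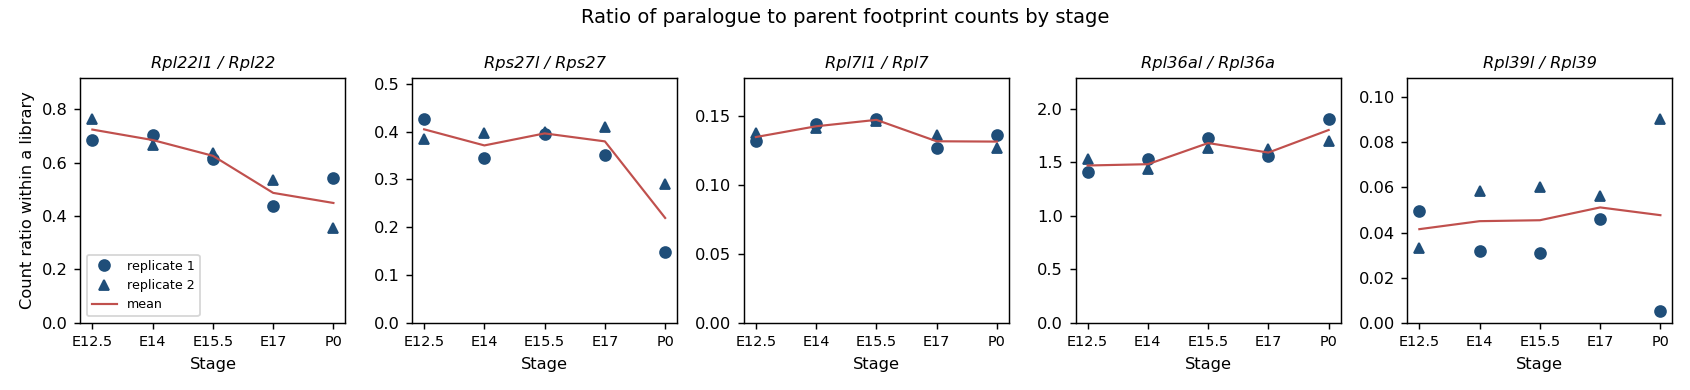
Ratio of paralogue to parent footprint counts in each library by stage, 1 panel per pair, with the line through the stage means. The Rps27l to Rps27 ratio is between 0.345 and 0.426 in all 8 embryonic libraries and at 0.147 and 0.291 at P0, and the Rpl7l1 to Rpl7 ratio stays between 0.126 and 0.148.

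Since footprints of similar copies can be assigned to either gene, the counts of each pair were also summed. Over the whole course all 5 sums were called lower, with log2 fold changes of -1.06 for Rpl22l1 plus Rpl22, -0.74 for Rps27l plus Rps27, -1.04 for Rpl7l1 plus Rpl7, -0.77 for Rpl36al plus Rpl36a and -0.90 for Rpl39l plus Rpl39 (adjusted p between 7.36e-05 and 0.0229, limma-voom). From E14 to E15.5 the sums of the Rpl22 and Rpl39 pairs were called (-0.50 and -0.49). From E17 to P0, 0 of 5 sums were called. No other gene in the table had counts within 5% of those of a paralogue in every library.

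The genes closest to each paralogue across the 10 libraries are named here. The libraries share stage and depth, so these correlations are descriptions over 9214 genes with at least 100 counts on average. The closest genes often had near-equal r, and Rpl22l1, Rps27l and Rpl7l1 also followed one another (r of 0.93 to 0.96). Closest to Rpl22l1 in log2 CPM were Pole, the catalytic subunit of a replicative DNA polymerase (Pearson r = 0.997, n = 10 libraries), Igf2bp2, an mRNA-binding protein (0.996), and Ran, the GTPase of nuclear transport (0.995). Rpl22 was at r = 0.86. Closest to Rps27l were Cks2, a partner of cyclin-dependent kinases (0.992), Pclaf, a PCNA-binding protein (0.992), and Nuf2, a kinetochore protein (0.991), with Rps27 at 0.57. Pole was at 14.8 and 16.2 CPM at E12.5 and 2.50 and 2.03 CPM at P0, and Cks2 at 199.6 and 198.9 CPM at E12.5 and 11.2 and 13.2 CPM at P0.

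Rpl7l1 was closest to the Integrator subunits Ints8 and Ints13 (r = 0.995 for both) and to the kinase Pkn2 (0.994), and Rpl7 was at 0.98. Rpl36al was closest to Naca, a subunit of the nascent polypeptide-associated complex (0.992), to its own parent Rpl36a (0.991) and to Hmgb1, a chromatin protein (0.987). Rpl39l was closest to Tank, an adaptor of innate immune signalling (0.995), AI987944 (0.975) and Ddx10, an RNA helicase (0.973), and Rpl39 was at 0.37. Tank, like Rpl39l, was lowest in P0 replicate 1, with 11.2 CPM against 21.9 CPM in replicate 2. AI987944 (19 counts) and Ddx10 (23 counts) were lowest there too. Rpl39l, with 31 counts, lay far below its other values in that library, which thus weighs heavily in these r values. The r values of Rpl39l were not computed without P0 replicate 1. Among the paralogues themselves r ranged from 0.43 (Rpl22l1 with Rpl39l) to 0.96 (Rps27l with Rpl7l1 and with Rpl22l1), and Rpl36al and Rpl39l, which share the low P0 replicate 1, were at 0.92.

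Other genes of the pathways that the paralogues are known from are read against all genes, of which 32% were called lower and 30.1% higher from E12.5 to P0. Of 22 assembly factors of the large subunit, 9 were called lower and 0 higher, with a median log2 fold change of -0.35. The largest fall was that of Rpf1, from 39.3 ± 3.20 to 14.4 ± 6.62 CPM (SD, n = 2; log2 fold change -1.41 ± 0.25, SE, adjusted p = 0.0012, limma-voom). Of 16 p53 target genes, 5 were called lower and 6 higher, with a median of 0.34, so that both shares were near those of all genes. The extremes were the kinase Plk2 (3.16, adjusted p = 1.05e-06, limma-voom) and the antiproliferative gene Btg2 (-3.30, adjusted p = 1.36e-06).

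Markers of cell types moved over the same stages. The 5 neocortex markers Emx1, Emx2, Lhx2, Neurod2 and Neurod6 had footprints in every library, with 2 called higher and 3 lower from E12.5 to P0. Of 10 progenitor markers, 8 were called lower and 2 higher from E12.5 to P0, and none was at 0. Their summed level did not fall steadily: it was 2194 to 2238 CPM at E12.5, 2162 to 2318 CPM at E15.5, 2392 to 2517 CPM at E17 and 1458 to 1992 CPM at P0. Of 10 neuron markers, 8 were called higher and 0 lower, and their sum went from 2331 to 2365 CPM to 8102 to 9103 CPM. Markers of astrocytes and oligodendrocyte lineage cells summed to 19.7 to 20.2 CPM at E12.5 and 122 to 147 CPM at P0 (7 of 8 called higher).

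Red blood cell genes were called lower in 9 of 9 tested (of 10 listed), from a sum of 11210 to 11602 CPM to one of 1438 to 1861 CPM, with most of that fall between E17 (7250 to 7257 CPM) and P0, the step at which Rps27l fell most. Markers of meninges (8 of 8) and choroid plexus (7 of 7 tested, of 8 listed) were called lower from E14 to E15.5, the step at which both Rpl22l1 and Rps27l were called. The meninges sum went from 68.4 to 77.9 CPM to 3.93 to 4.61 CPM, and the choroid plexus sum from 1156 to 1163 CPM to 11.4 to 13.8 CPM, with Slc4a5 at 0 at E15.5 and E17. Histone genes held 32.7% to 38.5% of all counts at E12.5 and E14, 17.2% to 18.7% at E15.5 and 6.32% to 9.83% at P0. The part of these shifts in the paralogues' changes was not tested.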

How the data were processed

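Neocortex footprints from 10 libraries (5 stages, 2 pools each) were analysed. The authors deposited whole-number footprint counts per gene, not scaled to depth. Per the study's methods, lysates were digested with RNase A and T1 without cycloheximide, duplicate read sequences were collapsed, reads from tRNA, rRNA and snoRNA were removed, and the rest were aligned with STAR (2.7.0 in the submitters' processing notes) to coding transcripts and the genome of GENCODE release M12, keeping reads that match several places. The methods name DeepShape-prime for isoform estimates and tximport for gene counts. Whether the deposited table comes from that step is not stated. Of 22373 identifiers, 22274 matched a symbol.

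Genes with at least 32 footprints over the 2 libraries of one or more stages were kept (13484). TMM factors (edgeR 4.0.16) and limma-voom (limma 3.58.1, R 4.3.3) were used with 1 coefficient per stage over all libraries. Two-sided p-values took Benjamini-Hochberg adjustment across these 13484 genes, and calls needed a value under 0.05 with a 1.25-fold change. The limma-voom p-values set differences between stages against the spread between libraries of a stage, estimated over all stages. With 2 pools per stage, that spread holds differences between pools together with those of library preparation and depth. Log2 paralogue to parent count ratios (0.5 added) and levels relative to the median of 79 canonical genes were tested by exact permutation of libraries over stages, each adjusted over 5 tests. The code was tested on simulated counts.

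The paralogues and lists were chosen with earlier results of these data known. Named were the 5 paralogues, their parents, the 3 genes nearest each paralogue by Pearson r of log2 CPM, the largest called rise and fall of each list, and paralogues that failed the filter. Alternatives were edgeR, DESeq2 (1.42.0), other scalings and filters, sample weights, a replicate block, fits of 2 stages and leaving out each library.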

Additional observations from a re-analysis of the deposited data

How the results depend on the processing

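From E12.5 to P0, 4 paralogues were called, against 3 with total counts alone, 3 in a fit of the 2 stages alone, 2 when scaled to the canonical family and 3 to 5 when any 1 library was left out. From E14 to E15.5, 2 were called, against 0 with total counts alone, 0 scaled to the family and 1 to 2 without a library. From E17 to P0, 2 were called, against 1 with total counts alone, 1 with sample quality weights, 0 in a fit of the 2 stages alone, 1 scaled to the family and 1 to 4 without a library, and 2 with each gene of a pair counted alone where 0 sums were called. The F test passed 3, against 3 to 4 without a library, 4 with sample quality weights and 2 scaled to the family. edgeR, DESeq2 and both filters changed none of these counts. Total counts alone shifted the median of all genes by 0.29 from E14 to E15.5. There the higher share among calls went from 45.6% to 72.7% (80.5% scaled to the family, whose median shift was 0.42). From E12.5 to P0 that share went from 48.5% to 72.0% and 79.8% (shifts of 0.53 and 0.77), and from E17 to P0 from 46.1% to 63.3% and 73.9%.

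Directions turned, without a call, from E14 to E15.5 under total counts alone for Rpl7l1 (0.095), Rpl36al (0.060) and Rpl7 (0.051), and under family scaling for Rps27l (0.053), Rpl7l1 (0.23), Rpl36al (0.19), Rpl7 (0.18) and Rpl36a (0.0086). Family scaling turned, from E12.5 to P0, Rpl36al (0.12) and Rps27 (0.22). Total counts alone turned Rpl36al from E15.5 to E17 (0.034), and edgeR turned Rpl39l from E17 to P0 (0.026). Without any 1 library, Rpl39l ranged from -0.94 to 0.20 (E12.5 to E14), -1.06 to 0.071 (E14 to E15.5), -0.20 to 0.64 (E15.5 to E17), -3.22 to 0.86 (E17 to P0) and -3.85 to 0.23 (E12.5 to P0), and Rpl36al from -0.067 to 0.0099 (E15.5 to E17) and -0.62 to 0.16 (E17 to P0). The cause was not tested.

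Replicate numbers were not treated as pairs in the main fits. Replicate differences correlated between stages at r over 0.1 in 5 of 10 stage pairs (from -0.63 to 0.43). Neither these values nor the sample titles settle whether libraries were paired or shared a batch. A replicate block kept the counts of 4, 2, 2 and 3 calls, and for Rpl22l1 relative to the family it gave an adjusted permutation p of 0.0833, with 0.00529 to 0.134 when any 1 library was left out. The Rpl22l1 to Rpl22 ratio gave 0.0212 to 0.316 without a library. Against the mean of the family, Rps27l (0.0494) and Rpl7l1 (0.0238) passed, and Rpl7l1 passed against its own subunit (0.00265). The precision is limited by 2 libraries per stage and by the shallow P0 replicate 1.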
